A study of Sus scrofa with 5 samples.

Results

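The cells described here are lymphocytes from the cecal mucosa of newborn piglets (d0) and of piglets aged 21 days (d21), 289 cells of 15218 at d0 and 7090 cells of 16892 at d21, out of 72701 cells in all 5 libraries of the series. Cells were selected on measured counts, and a cell was taken if it had at least 200 detected genes, at least 1 UMI of PTPRC (CD45, the surface phosphatase of white blood cells), at least 2 UMIs in all of CD3E, CD3G, CD2, NCR1 and KLRK1, no UMI of EPCAM (the epithelial adhesion molecule), and at most 1 UMI in all of the B cell genes MS4A1 and CD79B. A UMI, or unique molecular identifier, marks 1 captured RNA molecule. The levels of the genes used for the choice are given below as a description only.

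The study followed the cecum of suckling piglets, labelled male, at 0, 1, 7, 14 and 21 days of age with droplet single-cell RNA sequencing. The cells of 5 piglets, out of litters of Large White sows, were pooled into a single library per age, after the mucosa had been scraped off and dissociated with EDTA and trypsin. Each age is therefore 1 library, the spread between piglets is unknown, and age and library cannot be told apart. No test was made, and every interval given is a 95% interval for counting error only. The groups share tissue, breed and housing, and no other feed than maternal milk, antibiotics or immunizations were given. The d0 piglets were taken at birth, so the time of feeding and of exposure to microbes differs with age.

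Gut lymphocytes include T cells, which carry an antigen receptor coupled to the CD3 chains, natural killer (NK) cells and other innate lymphoid cells, which lack it. Many lie between epithelial cells and hold cytotoxic proteins such as granzymes, perforin and granulysin ready for release. At birth the mucosa holds few lymphocytes, and the population fills in after birth as microbes and feed reach the gut.

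The chosen cells made up 1.90% of the cells kept at d0 (1.69 to 2.13) and 42.0% at d21 (41.2 to 42.7). They were 1.59% at d1, 29.2% at d7 and 36.4% at d14. These are shares of the cells that passed dissociation and droplet capture, and a share cannot separate more lymphocytes from fewer epithelial cells. Fewer cells of a kind and less recovery of that kind cannot be told apart either.

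The chosen cells carried 736548 counts at d0 and 37933508 at d21, and the typical cell held 2209 UMIs at d0 and 4231 at d21, from 884 and 1544 genes (medians). The level of a gene below is its summed count over the chosen cells per 10000 counts of those cells, so 1 count at d0 is worth a level of 0.0136. A count of 0 at d0 allows a level of up to 0.0407, the worth of 3 counts. The d0 and d21 libraries shared 64 cell barcodes, of which 0 were chosen cells in both.

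The gate genes were close between the ages. PTPRC was at 8.97 (8.30 to 9.68) at d0 and 9.30 (9.20 to 9.4) at d21, and CD3E, a signalling chain of the T cell receptor complex, was at 6.71 (6.13 to 7.32) and 9.03 (8.94 to 9.13). CD3G went the other way, from 7.48 (6.87 to 8.13) to 6.10 (6.02 to 6.18). KLRK1, which encodes the activating receptor NKG2D, was at 4.56 and 4.13. CD2 was at 1.02 and 0.927, and NCR1, an NK receptor, at 0.163 and 0.0965.

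Near the edge of the gate at d0, 79 cells met every other criterion with 1 UMI of the lymphocyte genes and stayed out, 58 entered with 2, and 231 had 3 or more. At d21 these numbers were 1390, 975 and 6115. Outside the gate, 125 cells at d0 and 1073 at d21 met all criteria but PTPRC. All but the absence of EPCAM were met by 101 cells at d0 and 420 at d21. Next to the 289 and 7090 chosen cells, both kinds of near miss were relatively more frequent at d0.

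Some genes of white blood cells outside the gate were high in the chosen cells. CORO1A, an actin regulator of white blood cells, was at 9.07 in the chosen cells and 0.244 in all other cells of the d0 library, CD52 at 21.9 and 0.603, and PTPRCAP, a partner of CD45, at 4.17 and 0.102. The gate asked for PTPRC, so this contrast cannot tell lymphocytes from other white blood cells. The whole list of 30 lymphocyte surface and signalling genes differed less. It summed to 106 and 67.9 at d0, and to 122 and 81.8 at d21. The summed level of the 17 myeloid marker genes in the chosen cells was 0.367 at d0 and 1.83 at d21, and that of the 12 B and plasma cell genes was 0.38 and 4.80. CD163 and CSF1R, both of macrophages, had no count in the chosen cells at d0.

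CD3 transcripts were found in most cells at both ages. CD3E and CD3G are gate genes, so a high share is in part set by the choice and is a description only. With each cell thinned to 1000 UMIs, 77.6% of 281 cells at d0 (72.2 to 82.3) and 73.7% of 6793 cells at d21 (72.6 to 74.7) had a UMI of CD3D, CD3E or CD3G. Without thinning the order turned, at 92.7% and 96.2%, and with 500 UMIs the shares were 51.9% and 52.8%. Only 21 cells at d0 had no CD3 UMI, so NK and innate lymphoid cells can hardly be described apart from T cells in the newborn library. In the d1 library the share at 1000 UMIs was lower, at 43.9% of 223 cells (37.3 to 50.7). It was 68.5% at d7 and 71.6% at d14. Levels at d1 thus come from a mix with fewer CD3-positive cells.

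Of 20648 genes, 2913 had a level of at least 0.5 at d0 or d21, and these were compared as the log2 ratio of d21 over d0 with 0.1 added to both levels. This scale understates the ratio of low genes. At least 2-fold higher at d21 were 252 genes (8.65%), and at least 2-fold lower were 105 (3.60%). The counts of list members past 2-fold below are to be read against these shares. A short list can differ from them by 1 or 2 genes. The median ratio of all 2913 genes was 0.26, with 2037 above 0. Levels taken per 10000 counts without mitochondrially encoded and ribosomal protein genes moved this median to 0.05 and gave 257 higher and 226 lower genes, out of 4014 that then reached the minimum level. The balance of the directions was thus different under that scaling with its larger set of genes. Ratios near 0.26 on this scale stand at the middle of all genes.

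The other cells of the same libraries went the same way for many of these genes. Among the 2913 genes, 28.1% were at least 2-fold higher at d21 and 4.67% lower in all cells outside the gate. The median log2 ratio of these genes in those other cells was 0.53. Of the 252 genes higher in the chosen lymphocytes, 203 (80.6%) were also 2-fold higher there, as were 56 (53.3%) of the 105 lower ones in their direction. The other cells at d21 still hold lymphocytes that missed the gate, with PTPRC at 3.27 against 0.176 at d0, so they are no lymphocyte-free comparison. For that reason values are also given below for cells with at least 2 UMIs of EPCAM and none of PTPRC or the gate's lymphocyte genes, 7558 cells at d0 and 440 at d21, called epithelial cells here.

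**Figure D1:**
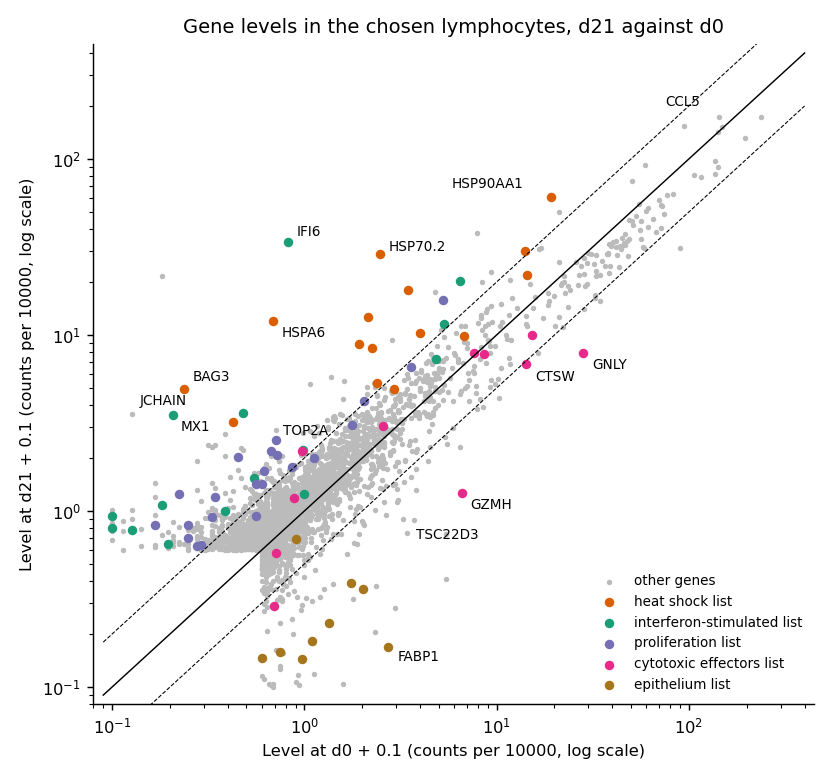
Level of each of 2913 genes in the chosen lymphocytes at d21 (vertical axis) against d0 (horizontal axis), in counts per 10000 with 0.1 added, on log scales. The solid line marks equal levels and the dashed lines 2-fold differences. IFI6, HSP70.2 and BAG3 lie far above the line, GNLY, GZMH and TSC22D3 below it, and CCL5 near it.

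T cell receptor signalling genes lay somewhat above the middle of all genes, with a median log2 ratio of 0.56 against 0.26 for all genes. Of 8 measured genes of this list, 7 were above 0, against 2037 of all 2913. At least 2-fold higher was 1 of the 8 and 0 were lower, against 8.65% and 3.60% of all genes. CD247, the zeta chain of the receptor complex, was at 2.38 (2.04 to 2.76) and 3.92 (3.86 to 3.98), and LCK, the kinase that starts the receptor's signal, at 1.56 and 2.26.

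CD8A, the co-receptor chain of killer T cells and of many intraepithelial lymphocytes, was the member past 2-fold. Its level was 0.353 (0.231 to 0.517) at d0, 0.321 at d1, 1.09 at d7, 1.35 at d14 and 1.61 (1.57 to 1.65) at d21, a log2 ratio of 1.92. The 3 later libraries all lay above the 2 early ones. Thinned to 1000 UMIs, 2.85% of cells (1.24 to 5.53) had a UMI of it at d0 and 15.6% (14.8 to 16.5) at d21, against 0.733% of epithelial cells at d21. In Sscrofa11.1 the gene lies on chromosome 3 from 57999228 to 58029768. CD8B, its partner chain, and CD4 were both under the minimum level, CD8B at 0.0679 and 0.396 and CD4 at 0.0679 and 0.137.

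Cytotoxic effector genes did not move as a block. Of 11 measured genes, 4 were at least 2-fold lower at d21, 1 was higher and 6 lay within 2-fold, with a median of -0.31. Over all genes 3.60% were lower and 8.65% higher. The 4 were GZMH, GNLY, GZMM and CTSW, and the higher one was TNFSF10, the death ligand TRAIL, at 0.869 and 2.09. Their summed level over the 14 listed genes was 85.8 at d0, 93.8 at d1, 53.8 at d7, 65.6 at d14 and 48.3 at d21.

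GNLY encodes granulysin, a protein that perforates membranes of microbes and target cells. Its level was 28.1 (26.9 to 29.4) at d0, 52.7 at d1, 17.6 at d7, 18.7 at d14 and 7.80 (7.71 to 7.89) at d21. Both early libraries thus lay above the 3 later ones, with d21 lowest. The ratio of d0 to d21 was 3.60, and the log2 ratio was -1.84, or -2.03 among CD3-positive cells. In the 21 and 269 CD3-negative cells it pointed the other way, with levels of 19.2 at d0 and 35 at d21.

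The difference lay in the counts per cell as well as in the share of cells. At equal depth, 22.8% of cells at d0 (18 to 28.1) and 12.4% at d21 (11.6 to 13.2) had a GNLY UMI, and without thinning 69 of 289 and 1720 of 7090 cells did. Those cells held on average 30.0 GNLY UMIs at d0 and 17.2 at d21, although their median depth was 2066 UMIs at d0 and 4418 at d21. In epithelial cells the share with a GNLY UMI was 0.0539% at d0 and 4.40% at d21, with median depths of 6852 and 4437.5 UMIs. GNLY lies on chromosome 3 from 59067327 to 59072034.

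Among the newborn cells, those with GNLY also held more of another effector. The 69 GNLY-positive cells had GZMB (granzyme B, a protease that starts cell death) at 35.3, while the GNLY-negative cells had it at 1.54. Their level of the gate gene CD3E was 2.90 against 7.69, and that of the gate gene KLRK1 was 6.27 against 4.12. The gate could be met through either gene, so these 2 levels are a description only. A CD3 UMI was found in 64 of the 69 cells, against 268 of all 289. FCER1G, an adaptor of activating NK and Fc receptors, was at 12.1 and 5.62. At d21 the same split gave GZMB at 13.6 and 5.64 and CD3E at 8.70 and 9.15, a smaller contrast in these genes. The split was made without thinning, and the GNLY-positive cells were deeper at d21, at a median of 4418 UMIs against 2066. GNLY was also found in 4.40% of thinned epithelial cells at d21 against 0.0539% at d0. The part of depth and of free RNA in the smaller contrast was not tested.

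GZMH, the gene of granzyme H, was at 6.48 (5.91 to 7.08) at d0, 1.93 at d1, 0.523 at d7, 1.86 at d14 and 1.17 (1.13 to 1.20) at d21, a log2 ratio of -2.38. The d0 library held the highest value of the 5. A GZMH UMI was found in 30.2% of thinned cells at d0 (24.9 to 36.0) and 7.94% at d21 (7.30 to 8.60). GZMB, a neighbouring gene of the same family on chromosome 7, was at 8.49 and 7.68, and reads of such related genes may be split between them in ways the counts do not show. CTSW, cathepsin W of cytotoxic granules, was at 14.1 (13.3 to 15) and 6.72 (6.63 to 6.80) and had a UMI in 71.9% and 41.1% of thinned cells. NKG7, another granule protein, was at 7.55 and 7.75, and PRF1, perforin, at 0.611 and 0.475, both within 2-fold.

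NK receptor genes lay a little below the middle of all genes, with 1 of 11 at least 2-fold higher, 0 lower and a median of -0.36. The 1 of 11 is near the 8.65% of all genes that were higher. KLRD1, the CD94 chain of inhibitory and activating NK receptors, was the higher one at 0.0950 and 0.514, from 7 counts at d0. It was lower at d21 among the few CD3-negative cells, at a log2 ratio of -0.70. FCER1G was at 6.95 and 5.04, TYROBP, an adaptor like it, at 1.85 and 1.42, and TXK, a kinase of T and NK cells, at 1.77 and 0.923. FCGR3A, the Fc receptor CD16, was at 3.91 and 4.89.

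Genes of the type 17 and innate lymphoid programme split in both directions. Of 7 measured genes, 3 were at least 2-fold higher (IL22, AHR and BATF) and 2 lower (KIT and IL7R), against 8.65% and 3.60% of all genes. IL22, a cytokine that acts on epithelial cells, had no count among the 289 newborn cells and was at 0.0642 at d1, 0.541 at d7, 0.92 at d14 and 0.583 at d21, at least 14.3-fold higher at d21 than the worth of 3 counts at d0. It came from 253 of 7090 cells at d21, of which 247 also had a CD3 UMI, against 6821 of all 7090. AHR, a receptor for compounds from diet and microbes, was at 0.177 and 0.693, and BATF, a transcription factor of activated T cells, at 0.394 and 0.897. IL17A, the cytokine that names the type and under the minimum level, was at 0.0136 (1 count) at d0, 0.888 at d7 and 0.155 at d21.

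KIT, the stem cell factor receptor, was at 1.57 (1.30 to 1.89) at d0, 0.424 at d1, 0.539 at d7, 0.285 at d14 and 0.471 (0.450 to 0.493) at d21. It is known from progenitors, mast cells and innate lymphoid cells. The summed level of the 6 mast cell genes found was 0.149 at d0. IL7R, the interleukin 7 receptor on which lymphocytes depend for survival, was at 1.71 (1.42 to 2.04) and 0.556 (0.532 to 0.58). Without thinning, 71 of 76 newborn cells with a KIT UMI and 48 of 51 with an IL7R UMI also had a CD3 UMI. Of all newborn chosen cells, 268 of 289 did. The plot of shares of cells shows that both genes differed in the share of cells at equal depth, at 13.2% and 4.90% for KIT and 10.7% and 5.45% for IL7R.

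**Figure D2:**
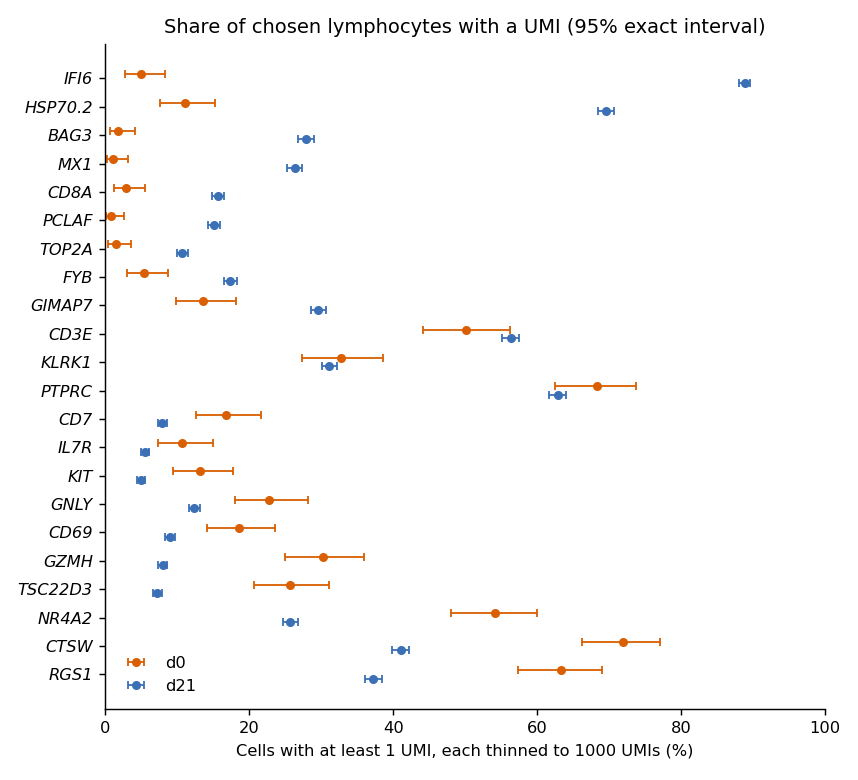
Share of chosen lymphocytes with at least 1 UMI of each gene (horizontal axis, percent) after each cell was thinned to 1000 UMIs, for d0 (orange, 281 cells) and d21 (blue, 6793 cells), with exact 95% intervals. IFI6 moves from 4.98% to 88.9% and GZMH from 30.2% to 7.94%, while the gate genes CD3E, KLRK1 and PTPRC stay close.

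Genes of naive and recirculating lymphocytes were low and mostly below 0, with 0 of 6 at least 2-fold higher, 1 lower and a median of -0.51. KLF2, a factor that keeps cells circulating, was the lower one at 2.88 and 1.32. CCR7 and LEF1, markers of naive T cells, stayed under the minimum level at d0 and d21. CCR7 was at 0.299 and 0.142, and LEF1 at 0.231 and 0.112. At d7 they were higher, at 0.822 and 0.754. TCF7, a factor of naive and memory T cells, was at 2.13 and 1.64.

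Residency and gut homing genes split as well, with 3 of 10 at least 2-fold higher and 2 lower, against 8.65% and 3.60% of all genes. ITGB7, the beta chain of the gut homing integrins, was at 0.421 and 1.23. ITGA1, a collagen-binding integrin of resident T cells, was at 0.231 and 0.670, and JAML, an adhesion molecule, at 0.38 and 0.861. JAML was only just past the limit, at a log2 ratio of 1.00. ITGAE, the CD103 chain that binds epithelial cadherin, was within 2-fold at 1.47 (1.20 to 1.77) and 1.79 (1.75 to 1.84). The lower genes were CD69, an early activation and retention marker, at 2.48 (2.14 to 2.87) and 1.03 (0.996 to 1.06), and RGS1, a brake on chemokine receptors, at 16.4 (15.4 to 17.3) and 7.78 (7.69 to 7.87).

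For checkpoint genes, 2 of 5 were at least 2-fold higher, against 8.65% of all genes. TNFRSF18, the costimulatory receptor GITR, was at 0.597 and 1.37. LAG3, an inhibitory receptor, had 3 counts at d0, a level of 0.0407 (0.0084 to 0.119), and was at 0.986 at d7, 1.90 at d14 and 0.535 (0.512 to 0.558) at d21. FOXP3, the factor of regulatory T cells, was under the minimum at 0.0407 and 0.0358. Its 3 counts at d0 came from 1 cell, and it was at 0.126 at d7 and 0.135 at d14. TOX was at 2.14 and 1.35.

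CCL5, a chemokine of cytotoxic lymphocytes, was the most abundant cytokine at both ages, at 144 (141 to 146) and 173 (173 to 174), and was at 63.6 at d1, 87.4 at d7 and 106 at d14. A CCL5 UMI was also found in 51.1% of thinned epithelial cells at d21 against 0.62% at d0. The part of free RNA in the CCL5 level was not tested. XCL1, a chemokine for dendritic cells, was at 2.96 and 3.66. None of the 5 measured cytokine genes was past 2-fold.

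Lymphocyte transcription factors were mostly alike, with 0 of 16 at least 2-fold higher, 1 lower and a median of 0.10. ID2 was at 11.5 and 12.9, ETS1 at 5.95 and 7.57, GATA3 at 0.801 and 0.749, and the survival gene BCL2, counted in the same list, at 2.51 and 2.36. SOX4 was the lower one at 3.60 (3.18 to 4.06) and 0.788 (0.76 to 0.817). It was higher still in the other cells, at 9.0 and 3.31, and their part in its level was not tested. General surface and signalling genes were likewise near the middle, with 1 of 25 higher (LGALS1), 2 lower (CD7 and LGALS3) and a median of 0.09. CD7, an early marker of T and NK cells, was at 1.93 (1.62 to 2.27) and 0.761 (0.733 to 0.789).

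The immediate early genes, which react within minutes to activation, were lower at d21 for 5 of 17 genes and higher for 1, with a median of -0.49. NR4A2, induced by receptor signals, was at 8.39 (7.74 to 9.08) and 3.81 (3.75 to 3.88), with a UMI in 54.1% and 25.7% of thinned cells. FOSB was at 7.85 and 3.72, EGR1 at 2.95 and 1.24, IER2 at 1.94 and 0.736, and ZFP36 at 3.71 and 1.63. The higher one was NFKBIA, an inhibitor of NF-kB, at 0.611 and 1.33. The same list had a median of -0.54 in all other cells and -0.78 in epithelial cells.

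Several of the genes of lowest ratio belonged to no list. TSC22D3, which encodes GILZ and is induced by glucocorticoids, was at 3.33 (2.92 to 3.77) at d0, 1.35 at d1, 0.816 at d7, 0.613 at d14 and 0.648 (0.623 to 0.674) at d21. It had a UMI in 25.6% of thinned cells at d0 and 7.18% at d21. In epithelial cells TSC22D3 was lower at d21 as well, at 0.437 and 0.113. FKBP5, another gene induced by glucocorticoids and named after its values were seen, was within 2-fold at 1.30 and 0.640, a log2 ratio of -0.92. In the other cells FKBP5 was at 0.535 and 0.474, a log2 ratio of -0.15. PIK3R1, a regulatory subunit of PI3 kinase, was at 10.2 and 4.26, KLF6 at 5.43 and 2.30, and TOPORS at 3.72 and 1.22. TAC3, a tachykinin precursor, was at 1.02 and 0.0182 but came from 11 cells at d0.

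HBB, the beta chain of hemoglobin, was also among the genes of lowest ratio, at 5.36 and 0.645. One cell held 388 of its 395 counts at d0, so its ratio describes that cell.

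**Figure D3:**
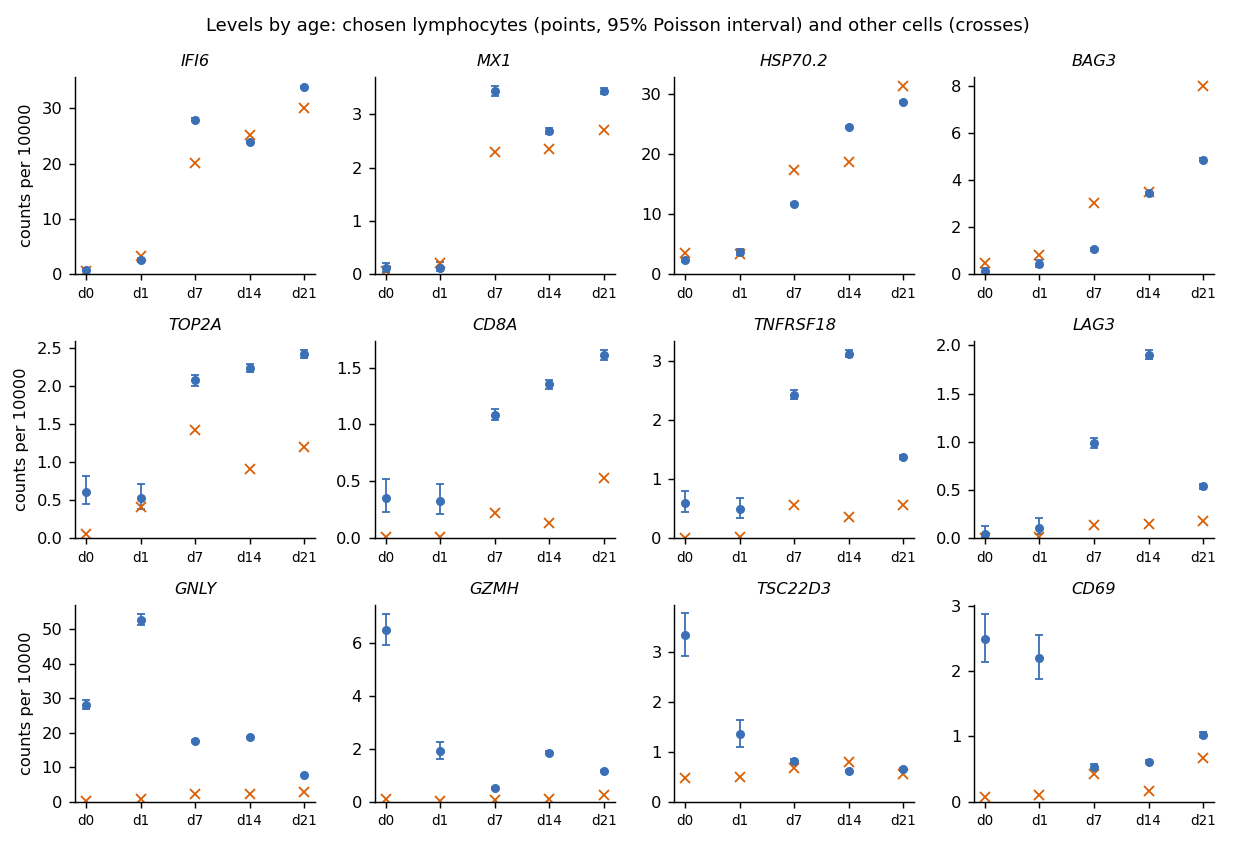
Level of 12 genes in counts per 10000 (vertical axes) at the 5 ages (horizontal axes), with blue points for the chosen lymphocytes and their 95% Poisson intervals, and orange crosses for all other cells of the same library. IFI6 and MX1 are low at d0 and d1 and high from d7 on in both kinds of cell, while GNLY and CD69 are highest in the 2 early libraries in the chosen cells.

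Proliferation genes were higher at d21. Of 22 measured genes, 18 were at least 2-fold higher and 0 lower, with a median of 1.47, and the summed level of the 27 listed genes was 19.9 at d0, 20.6 at d1, 45.4 at d7, 47.5 at d14 and 54.4 at d21. TOP2A, a topoisomerase of dividing cells, was at 0.611 (0.446 to 0.818) and 2.42 (2.37 to 2.47). MKI67, the Ki-67 antigen, was at 0.122 (0.0559 to 0.232) and 1.15 (1.12 to 1.18), and PCLAF, a partner of the replication clamp, at 0.367 (0.242 to 0.533) and 3.44 (3.38 to 3.50). A single cell held 33.3% of the TOP2A counts at d0.

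In each thinned cell, 12 genes of mitosis were counted together. At least 2 UMIs of them were found in 10 of 281 cells at d0, 3.56% (1.72 to 6.45), in 2.24% at d1, 13.5% at d7, 14.3% at d14 and in 18.9% (18 to 19.9) of 6793 cells at d21. Without thinning the shares at d0 and d21 were 5.54% and 37.0%. The 3 later libraries all lay above the 2 early ones. The same 22 genes had a median of 2.36 in the other cells and 2.42 in epithelial cells, so both kinds of cell had these genes higher at d21. TOP2A had a UMI in 11% of thinned epithelial cells at d21 and 0.256% at d0.

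Some genes of high ratio were higher still in the cells around the lymphocytes. JCHAIN, which joins IgA and IgM in plasma cells, was at 0.0271 (2 counts) and 3.47 in the chosen cells but at 26.1 in the other cells at d21, and 9.05% of thinned epithelial cells held a UMI of it. LOC100152327, a gene without a name in the files and of the highest ratio, was at 0.0815 and 21.5 in the chosen cells and at 132 in the other cells at d21. For both, the chosen cells lay below the cells around them, and the part of RNA from other cells was not tested.

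Interferon-stimulated genes, induced by interferons and known for antiviral defence, were higher at d21 for 13 of 15 measured genes and lower for 0, with a median of 1.74. Their summed level was 20.8 at d0, 21.9 at d1, 83.6 at d7, 84.1 at d14 and 91.8 at d21, so the libraries fell into 2 early low ones and 3 later high ones. The share of a cell's counts on the list had a median of 0.18% over the newborn cells (0.0659 to 0.393 from the 10th to the 90th percentile) and of 0.8% at d21 (0.39 to 1.80). The list took more than the newborn median in 99.2% of the d21 cells. These shares were taken without thinning, and the part of free RNA in them was not tested.

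IFI6, a protein of mitochondria and endoplasmic reticulum with antiviral action, carried much of the higher summed level. Its level was 0.72 (0.539 to 0.941) at d0, 2.47 at d1, 27.9 at d7, 23.9 at d14 and 33.8 (33.6 to 34.0) at d21, a 47.0-fold ratio of levels and a log2 ratio of 5.37. It was seen in 40 of 289 cells at d0 and 6919 of 7090 at d21, and in 4.98% (2.75 to 8.22) and 88.9% (88.1 to 89.6) at equal depth. IFI6 lies on chromosome 6 from 84852782 to 84858072.

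MX1, a GTPase that blocks viral replication, was at 0.109 (0.0469 to 0.214) and 3.43 (3.37 to 3.49). ISG15, a ubiquitin-like modifier, was at 5.21 and 11.4. RSAD2 and HERC5 had no count at d0 and were at 0.703 and 0.833 at d21, at least 17.3-fold and 20.5-fold above the worth of 3 counts. IFIT1 at 0.896 and 1.16 and LY6E at 4.74 and 7.18 were the members within 2-fold.

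The interferon list was higher outside the lymphocytes too. Its median was 2.44 in all other cells and 1.71 in epithelial cells, where IFI6 was at 0.591 and 22.4 and MX1 at 0.06 and 2.23. A difference of like size was thus present in the whole library, and a part of free RNA in it was not tested. IFITM1 was the exception, at 6.37 (5.80 to 6.97) and 20.2 (20.1 to 20.4) in the chosen cells and at 20.5 and 18.4 in the other cells.

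Genes of antigen presentation by MHC class I were moderately higher, with 3 of 12 past 2-fold, 0 lower and a median of 0.80. SLA-1, a classical class I heavy chain, was at 9.29 (8.60 to 10.0) and 22.7 (22.5 to 22.8), TAP1, the peptide transporter, at 0.272 and 0.784, and CALR, a chaperone of class I folding, at 1.48 and 4.22. B2M, the shared light chain, was within 2-fold at 16.6 and 30.5. The SLA class I genes are near copies of each other, so the split of reads among SLA-1, SLA-2, SLA-3 and SLA-6 is uncertain. In epithelial cells the list had a median of 1.41. Class II genes stayed within 2-fold, 7 of 7, with SLA-DRA at 4.17 and 3.47 and SLA-DQA1 at 2.47 and 2.90. At d14 their summed level was 65.3, against 21.5 at d0 and 24.2 at d21. In the other cells this sum was 202 at d14, 8.65 at d0 and 54.5 at d21. The myeloid marker genes summed to 9.62 in the chosen cells at d14, against 0.367 at d0 and 1.83 at d21. The part of other cells and free RNA in the d14 value was not tested.

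**Figure D4:**
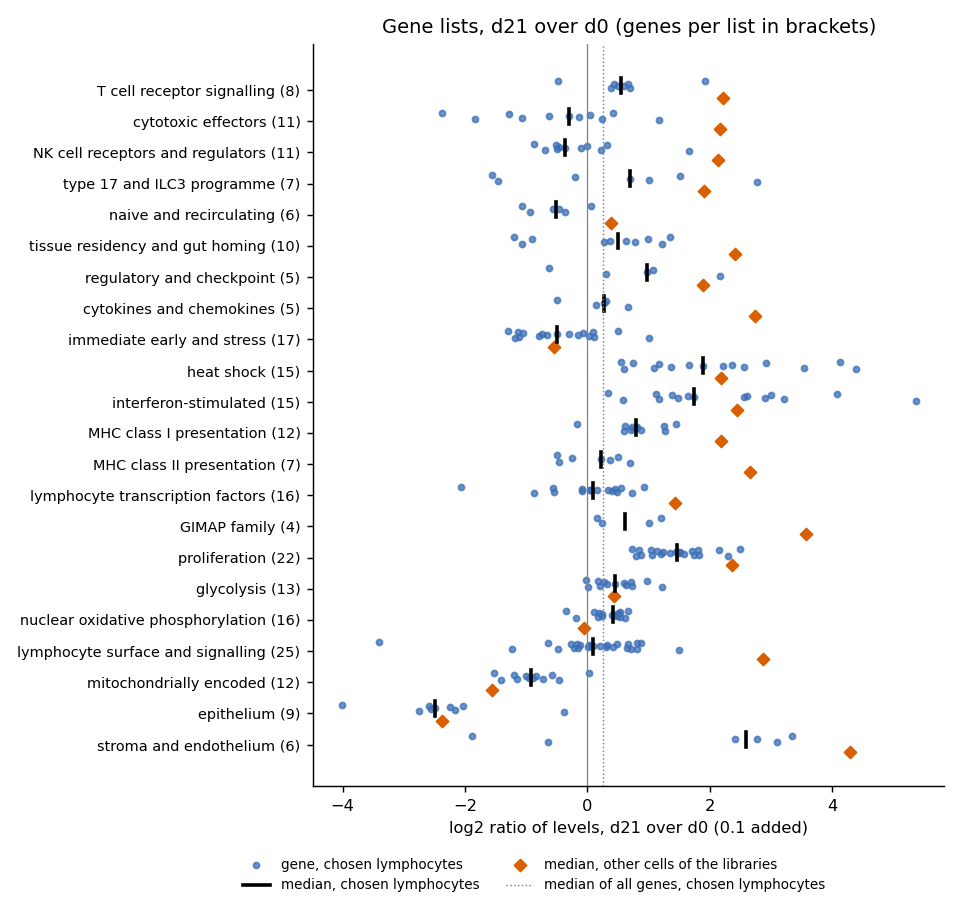
Log2 ratio of levels of d21 over d0 (horizontal axis, 0.1 added) for the genes of 22 lists in the chosen lymphocytes (blue points, black bar for the median) and the median of the same genes in all other cells of the libraries (orange diamonds). The heat shock, interferon-stimulated and proliferation lists lie to the right, at medians of 1.90, 1.74 and 1.47, and the epithelial list to the left at -2.49, and in all 4 the other cells lie on the same side.

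Heat shock genes, whose proteins refold damaged proteins and which react to heat and other stress, were higher at d21 for 12 of 15 measured genes, lower for 0, with a median of 1.90. Their summed level was 75.9 at d0, 88.3 at d1, 118 at d7, 192 at d14 and 239 at d21, higher in each later library. HSP70.2, an inducible chaperone, was at 2.36 (2.02 to 2.74) and 28.6 (28.4 to 28.8), with a UMI in 11% (7.62 to 15.3) and 69.6% (68.5 to 70.7) of thinned cells. BAG3, its co-chaperone, was at 0.136 (0.0651 to 0.25) and 4.86 (4.79 to 4.93). HSP90AA1 was at 19.1 and 60.4, and DNAJB1 at 3.37 and 17.8. HSP70.2 and HSPA6, at 0.584 and 11.9, are closely related and their reads may be split. HSPA5, a chaperone of the endoplasmic reticulum, was within 2-fold at 2.84 and 4.84, as were HSP90AB1 and DNAJA1. HSPA1L, another HSP70 gene, outside the list, under the minimum level and named after its values were seen, went the other way, at 0.489 (0.342 to 0.677) and 0.0488, and at 1.76 and 0.104 in the other cells.

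The heat shock list was as much higher in the cells around the lymphocytes. Its summed level was 63.5 at d0 and 265 at d21 in the other cells and 65.6 and 248 in epithelial cells, with medians of 2.18 and 2.32. Within the chosen cells the share of counts on the list had a median of 0.647% at d0 (0.3 to 1.36 from the 10th to the 90th percentile) and 1.82% at d21 (0.587 to 5.22), so the d21 cells varied widely and overlapped the newborn ones. Of the d21 cells, 61.1% lay above the newborn 90th percentile. Age and the preparation of each library cannot be told apart here.

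GIMAP genes, GTPases of lymphocyte survival, were at least 2-fold higher for 2 of 4 members, against 8.65% of all genes, with a median of 0.62. These were GIMAP7 at 1.44 and 3.45 and GIMAP4 at 1.56 and 3.24, the latter only just past the limit at a log2 ratio of 1.01.

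Energy genes differed little. Of 13 glycolysis genes 1 was past 2-fold, TPI1 at 1.09 and 2.67, with a median of 0.45, and of 16 nuclear genes of oxidative phosphorylation none was, with a median of 0.43. Mitochondrially encoded genes took 9.84% of the counts of the chosen cells at d0 and 6.58% at d21, with 5 of 12 at least 2-fold lower and a median of -0.92, against -1.57 in the other cells, where they took 23.8% and 9.58%. CYTB, a subunit of complex III, was at 89.7 and 31.1, while COX1, of complex IV, was at 149 and 152. Across cells the mitochondrial share had a median of 5.38% at d0 and 5.92% at d21, with a 90th percentile of 19.2% and 16%. The sums and the medians over cells thus differed in direction. Among cells under 20% mitochondrial counts the list's median was -0.42, none of the 5 genes stayed past 2-fold, and COX1 had a log2 ratio of 0.76.

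Markers of epithelium in the chosen cells show what else the droplets held. Of 9 measured epithelial genes 8 were at least 2-fold lower at d21 and 0 higher, with a median of -2.49, and the summed level of the 19 genes found was 12.7 at d0 and 2.22 at d21. The other cells had this sum at 159 and 50.4. FABP1, a fatty acid binding protein of enterocytes, was at 2.63 and 0.0696 in the chosen cells and 22.4 and 1.01 in the other cells. DISP2, PRAP1, S100G and LGALS3, also among the genes of lowest ratio, were at 85.9, 21.5, 31.1 and 36.6 in the other cells at d0, each well above the chosen cells. The chosen cells excluded any EPCAM UMI, and the part of free epithelial RNA in these values was not tested.

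Of 6 measured genes of stroma and endothelium, 4 were at least 2-fold higher at d21 and 1 was lower. COL3A1, a collagen, and ACTA2, smooth muscle actin, had no count at d0 and were at 0.916 and 0.759 at d21, at least 22.5-fold and 18.6-fold above the worth of 3 counts, while the other cells at d21 had 5.97 and 4.26. At d1 the chosen cells had COL3A1 at 2.94. The lower one was S100B, a calcium-binding protein known from glia, at 1.10 and 0.226 in the chosen cells, a log2 ratio of -1.88. In the other cells all 6 genes, S100B among them, were at least 2-fold higher at d21. At d0 an S100B UMI was found in 63 of 289 chosen cells without thinning. Of these, 58 also had a CD3 UMI, against 268 of all 289.

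The libraries of d1 and d14, which the selection of the comparison did not use, gave 200 genes at least 2-fold higher at d14 (6.87%) and 86 lower (2.95%). Of the 252 genes higher at d21 over d0, 107 (42.5%) were also 2-fold higher at d14 over d1 and 231 had the same sign. Of the 105 lower genes, 55 (52.4%) were also 2-fold lower and 96 had the same sign. The median ratio of d14 over d1 of all 2913 genes was 0.28, so a ratio above 0 was the more common one in any case. The genes past 2-fold in the opposite direction were IGFBP7 and COL4A1 among the higher ones and LOC100156469 among the lower. These are again 1 library each, handled within the same study. At 1000 UMIs a CD3 UMI was found in 43.9% of the chosen cells at d1 and 71.6% at d14, so their mix of cells differed.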

How the data were processed

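Single-cell RNA was captured from pig cecal mucosa in 5 libraries, 1 per age, each of 5 mixed piglets. The authors made UMI counts per gene and barcode with Cell Ranger 3.1.0, which uses STAR, on the porcine build susScr11 (Sscrofa11.1), and deposited them as unnormalized count matrices of 20648 genes. The library kit is given as V3 in the labels and as an earlier version in the methods, and the matrices hold more barcodes than the forced number the methods state, between 10824 and 16975. The authors' later filters and integration are not part of the deposited counts.

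Cells with at least 200 genes were kept, and lymphocytes were taken by the thresholds given above. Doublets were not removed. Counts of the chosen cells were summed per library and divided by their total per 10000, and log2 ratios had 0.1 added. Genes with a level of at least 0.5 at d0 or d21 were compared, and called at a 2-fold ratio. Shares of cells were computed after thinning to 1000 UMIs, which left out 8 cells at d0 and 297 at d21. Intervals are exact Poisson for levels and exact Clopper-Pearson for shares, with SciPy 1.17.1 and NumPy 2.4.6. With 1 library per age no test was possible. Depth was between 736548 and 37933508 counts in the chosen cells.

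The cells, gene lists and comparisons were chosen with earlier results of these data known. Named genes are the gate genes, list members with a level of at least 0.5, the 15 highest and 15 lowest ratios with a level of at least 1 that are also 2-fold above the other cells, and the 5 largest of each without that condition. A few more were named after their values were seen (CD4, CD8B, IL17A, FOXP3, CCR7, LEF1, CD163, CSF1R, FKBP5, HSPA1L, CIRBP, RBM3 and TNFSF9, ribosomal protein genes, LOC100152327, and the genes singled out by their direction at d14 over d1). The 12 mitosis genes and the epithelial comparison cells were also set then. Coordinates come from RefSeq for Sscrofa11.1, matched by symbol for 278 of 282 named genes. T cell receptor constant genes could not be looked up by description and were not analysed here. The d21 against d0 calculation was run on simulated counts of the 2283 genes with a level of at least 0.5 at d0. Of 200 genes given a change, 199 were recovered to within 0.5 (log2), and 0 of 2083 left alone were called. Both ages were drawn as Poisson counts from the d0 profile, without spread between cells, piglets or libraries. The simulation thus checks the calculation only and gives no rate of false calls for the real data. A few genes are left out of the text.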

Additional observations from a re-analysis of the deposited data

How the results depend on the processing

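Leaving out a library was not possible with 1 library per age, and results rest on counting error alone. No paired analysis was possible because each age is a single library of mixed piglets. The count of 252 higher and 105 lower genes became 42 and 20 with 1 added to the levels, 526 and 252 with no minimum level, 68 and 38 with a minimum level of 2, and 899 and 282 in the 21 and 269 CD3-negative cells. The first of these settings has a larger pseudocount, the next 2 test more or fewer genes, and the last has few cells. With a denominator free of mitochondrially encoded and ribosomal protein genes, chosen after seeing the data, there were 257 higher and 226 lower of 4014 genes. Only 179 of the 252 and 98 of the 105 were among these. The 105 hold 5 mitochondrially encoded and 2 ribosomal protein genes, which were not compared under that denominator. The other settings gave 221 to 343 higher and 84 to 139 lower genes, not always the same ones: 151 of the 252 and 62 of the 105 genes were shared without cells that held 2 or more UMIs of other cell types, 196 and 78 with thinning to 1000 UMIs, and 193 and 86 with each cell given equal weight. Among cells under 20% mitochondrial counts the median of mitochondrially encoded genes moved from -0.92 to -0.42, and that of residency and gut homing genes from 0.50 to 0.21. In those cells some list members counted as higher fell short of 2-fold. Among them were JAML, BATF, NFKBIA and TNFRSF18, at log2 ratios of 0.88, 0.95, 0.99 and 0.97. The difference in the CD3-positive share, -3.89 percentage points at 1000 UMIs, became 0.932 at 500 UMIs and 3.47 without thinning. In CD3-negative cells 6 of the named genes past 2-fold reversed. Their log2 ratios were 0.86 for GNLY, -0.70 for KLRD1, 0.20 for SOX4, -0.0918 for NUSAP1, -0.37 for UBE2C and -0.18 for XBP1. Genes within 2-fold that changed sign were not counted as reversed. The cause of these reversals was not tested. Of the other log2 ratios of named genes under the settings, 3432 moved by less than their counting interval and 781 by more. The 3432 include 278 ratios with no minimum level and 151 with a minimum level of 2. Those settings only change which genes are compared, so these ratios could not move and say nothing about stability. List medians stayed within 0.25 in 312 cases and moved further in 73. Without cells that held 2 or more UMIs of other cell types, 88 and 1621 cells remained, and the medians were 1.40 for heat shock, 1.83 for interferon-stimulated, 1.00 for proliferation and -0.90 for cytotoxic genes. Without the 5% of cells with the most UMIs the log2 ratio of TOP2A was 2.84.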

Other observations

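Ribosomal protein genes, a group looked at after the values were seen, were slightly lower at d21 in the chosen lymphocytes. They took 29.8% of the counts at d0, 30.8% at d1 and 22.4% at d21, with 66 of 75 genes below 0, 2 at least 2-fold lower and a median log2 ratio of -0.35. The median of all 2913 genes in the chosen cells was 0.26. In the other cells the ribosomal protein genes had a median of 0.44, above 0 but below the 0.53 of all 2913 genes there. RPS27 was the edge case, at 28.3 and 14.0 with a log2 ratio of -1.01. Per cell, their share had a median of 30.5% at d0 and 21.9% at d21.

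CIRBP and RBM3, which encode RNA-binding proteins induced by mild cold, were named after their values were seen. CIRBP was at 1.78 (1.49 to 2.11) and 0.545 in the chosen cells, a log2 ratio of -1.54, and at 1.41 and 0.5 in the other cells. RBM3 was at 3.01 (2.63 to 3.44) at d0, 2.90 at d1, 1.94 at d7, 1.67 at d14 and 1.60 at d21, a log2 ratio of -0.88 and so within 2-fold. In the other cells RBM3 was at 0.965 and 1.10, a log2 ratio of 0.17.

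TNFSF9, the ligand of the costimulatory receptor 4-1BB and also named after its values were seen, was at 0.231 (0.134 to 0.370) at d0, 0.745 at d1, 0.957 at d7, 3.00 at d14 and 2.22 at d21, and had a UMI in 1.78% and 15.1% of thinned cells. In the other cells it was at 0.0224 and 1.45, a log2 ratio of 3.66 against 2.81 in the chosen cells.

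The genes just past the 2-fold limit on the higher side were ILK at 0.760 and 1.62, SSBP3 and ARRB2, and just under it MAP7D1 at 0.339 and 0.778, PRKRIP1 and NSD2. On the lower side DDX3X at 5.82 and 2.84, RPS27 and ND5 were just past it, and OGDH at 0.95 and 0.425, ZBTB10 and CREBRF just short of it.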
